A study of Mus musculus with 12 samples.

Results

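The comparison described here set NIH-3T3 fibroblasts that received 2 recombinant proteins at once, stanniocalcin-1 (STC-1) at 100 ng/mL and TGF-β1 at 10 ng/mL (the group TS, called combined below), against cells that received PBS (the group Con), all for 24 h. Its libraries were taken by treatment label, 6 of the 12 RNA-seq libraries of the series, 3 combined and 3 PBS. The comparison itself was chosen with earlier results of these data known. Tested were all 11763 genes of the 16300 in the table that passed a filter on low counts. The other 6 libraries came from cells given STC-1 alone (100 ng/mL, 3 libraries) or TGF-β1 alone (10 ng/mL, 3 libraries) for the same time, and they shared in the estimate of spread. NIH-3T3 is an immortalised mouse embryonic fibroblast line, and the labels name no added genetic change in any group. The series text calls the 3 libraries of each group biological replicates. The labels do not tell how the cultures were split, so p-values measure the spread between these libraries. The title of the series links STC-1 to PI3K/AKT signalling and immune modulation in scars.

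TGF-β1 is a secreted cytokine that binds a pair of serine/threonine kinase receptors, which phosphorylate SMAD2 and SMAD3. In textbook accounts of fibroblasts, these factors raise collagens, matrix crosslinking enzymes and contractile proteins such as smooth muscle actin. Stanniocalcin-1 is a secreted glycoprotein hormone first known from the control of calcium in fish, and in mammals it can bind and block PAPP-A, a protease that releases insulin-like growth factors from their binding proteins. PI3K and AKT form a kinase cascade downstream of growth factor receptors, which among other effects keeps FOXO transcription factors out of the nucleus. Many glycolytic enzymes are known targets of hypoxia-inducible factors, which bind a short core motif in promoters.

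The promoters of 4 members of the glycolysis and hypoxia list are shown because 14 of the 29 tested members of that list were called as higher in the combined libraries. The sequences are the 250 bases before the start of the gene in RefSeq (build GRCm38.p6, an earlier build than the GRCm39 named in the submitters' processing notes), 5′ to 3′ on the strand of the gene. Capitals mark matches, on either strand, to the hypoxia response cores ACGTG and GCGTG, with overlapping matches joined, and the palindrome CACGTG counts as 1 match per strand. A match is a description of the letters, and no binding was measured in these libraries. Ldha and Pgk1 are among the 10 smallest p-values below, as is Tpi1, which is not shown. Bnip3 and Pdk1 were picked for display after their values were seen, so the values of all 4 were known. Ldha and Pdk1 have 2 windows each, and window 1 is printed.
Ldha, chr7:46845554-46845803, plus strand: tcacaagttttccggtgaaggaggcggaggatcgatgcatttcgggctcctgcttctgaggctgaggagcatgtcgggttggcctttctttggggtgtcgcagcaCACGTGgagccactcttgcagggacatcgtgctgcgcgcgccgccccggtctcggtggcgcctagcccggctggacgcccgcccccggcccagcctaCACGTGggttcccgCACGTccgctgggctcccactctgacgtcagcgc
Pgk1, chrX:106186850-106187099, plus strand: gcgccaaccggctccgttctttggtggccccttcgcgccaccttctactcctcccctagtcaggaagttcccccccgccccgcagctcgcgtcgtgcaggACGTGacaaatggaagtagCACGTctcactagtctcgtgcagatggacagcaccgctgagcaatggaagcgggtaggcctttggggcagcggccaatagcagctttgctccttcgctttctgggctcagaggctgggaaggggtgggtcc
Bnip3, chr7:138909507-138909756, minus strand: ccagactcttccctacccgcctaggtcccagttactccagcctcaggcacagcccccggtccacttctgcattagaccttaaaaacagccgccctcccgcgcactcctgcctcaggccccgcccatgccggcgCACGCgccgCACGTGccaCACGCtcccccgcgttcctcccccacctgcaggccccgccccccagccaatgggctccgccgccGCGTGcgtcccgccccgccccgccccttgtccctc
Pdk1, chr2:71872974-71873223, plus strand: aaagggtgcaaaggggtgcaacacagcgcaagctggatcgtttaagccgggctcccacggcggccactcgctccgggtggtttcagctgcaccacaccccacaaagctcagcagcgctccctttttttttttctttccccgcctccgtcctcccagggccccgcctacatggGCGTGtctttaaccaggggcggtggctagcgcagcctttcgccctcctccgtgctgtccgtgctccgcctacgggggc
The Ldha and Bnip3 windows held 5 matches each, the Pgk1 window 2 and the Pdk1 window 1. At least 1 match was found in 12679 of all 32851 RefSeq promoter windows of this length, 38.6%. Of the 27 tested members of the list with a window, 24 had a match in at least 1 of their windows. Per window, which is the unit of the share over all promoters, 32 of 41 held a match. The list holds genes known to respond to hypoxia and was chosen with earlier results of these data known. The share over all promoters was not matched for expression or GC content. These shares therefore describe the sequences of the list, and their relation to the changes in level was not tested.

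Libraries held between 16867563 and 18521810 expected counts. All 12 fibroblast markers of a fixed list were in the table, with a summed level between 21370 and 22590 CPM (counts scaled to a fixed library total) in the PBS libraries and between 19970 and 21120 CPM in the combined libraries. Macrophage markers summed to at most 10.3 CPM in any of these 6 libraries, and those of epithelium and endothelium reached no more than 1.25 and 0.643 CPM. Of the macrophage list, Cd14 (4.133 to 5.705 CPM) and Cd68 (2.579 to 4.268 CPM) made up most of the sum. Ptprc and Csf1r were above 0 in each of the 6 libraries, at no more than 0.6233 CPM, and Adgre1 was at 0 in all 6. The adipocyte list summed to between 32.0 and 35.7 CPM, most of it Lpl, which stood at 30.1, 30.3 and 28.2 CPM in PBS and 26.2, 30.01 and 28.8 CPM in combined libraries. In bulk RNA such as this, fewer cells of a type and less RNA per cell cannot be told apart.

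In the combined libraries 713 of 11763 tested genes differed from PBS, 6.06% of those tested, by edgeR's quasi-likelihood test at a Benjamini-Hochberg adjusted p under 0.05. Of these, 374 genes (3.18%) rose and 339 (2.88%) fell, words used here only of genes past that threshold. The changes were small. The median change among called genes was 1.1-fold, 58 of them changed by at least 1.2-fold, 7 by at least 1.5-fold and 0 by 2-fold or more. The share called differed with abundance, with 627 of the 6158 genes above a log2 CPM of 5 called, 10.2%, and 86 of the 5605 below it, 1.53%. The 3 combined libraries lay wholly above or below the 3 PBS libraries for 675 of the 713 called genes, against 21.9% of all tested genes. Calls and lack of overlap come from the same libraries, so lack of overlap, here and for single genes below, is a description and no separate support. With library sizes left without TMM scaling the count was 718, split into 268 that rose and 450 that fell, so the balance of directions depends on the scaling. The count also depended on single libraries. It was 276 without PBS replicate 1 (161 rose, 115 fell), 421 without PBS replicate 2 (225 and 196) and 351 without combined replicate 1 (202 and 149). Without PBS replicate 3 it was 708 (395 and 313). It was 556 without combined replicate 2 (284 and 272) and 578 without combined replicate 3 (323 and 255). List counts below are to be read beside these numbers and, with all libraries, beside the 3.18% and 2.88% above. Those shares over all tested genes are not matched to the level of the list members, although the share called differed with abundance. In all 6 fits that leave out 1 PBS or combined library, 179 of the genes were called.

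**Figure D1:**
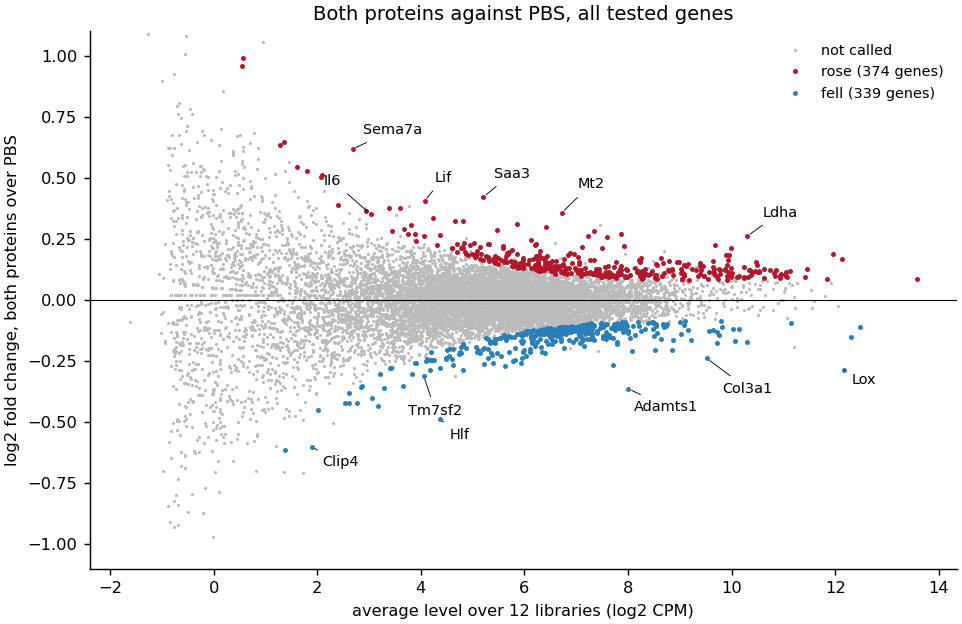
Log2 fold change of the combined treatment over PBS (y axis) against the average level over 12 libraries in log2 CPM (x axis), 1 point per tested gene. Red points rose (374 genes), blue points fell (339) and grey points were not called. The called genes lie close to 0 at high levels, and 7 genes outside the y axis, none of them called, are not drawn.

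Fold changes went with transcript length. Across 11511 genes with a length, the Spearman correlation of the log2 fold change with the length of the longest protein-coding transcript was -0.32, and with GC content -0.0052. These correlations are across genes, which are not independent replicates. Called genes that rose had a median length of 1942 bases and those that fell 5108 bases, against 3188 bases over all genes tested. Measured against the mean of all 12 libraries, the same correlation was 0.19, 0.22 and 0.092 in the 3 PBS libraries and -0.28, -0.12 and -0.14 in the combined ones. The libraries of each protein alone lay between, from -0.028 to 0.072 with STC-1 and from -0.094 to 0.0038 with TGF-β1. Single libraries also differed by GC content. The correlation with GC content was 0.27, -0.055 and -0.0053 in the 3 PBS libraries and 0.14, 0.16 and -0.026 in the combined ones. It ran from -0.24 to 0.10 with STC-1 and from -0.19 to 0.017 with TGF-β1. The value near 0 for the comparison thus does not mean that single libraries lacked a GC trend. When length and GC trends were removed through offsets, an alternative added after the data were seen, 480 of 11511 genes were called, 375 of them also in the fit without offsets. Over all genes with offsets 273 rose and 207 fell. Of 98 called genes that the naming rules given at the end picked and that have a length, 67 were also called with offsets. Of the 24 largest changes described below, 17 were. P-values of single genes below are from the fit without offsets. The part of the length trend in the gene list results was not tested beyond the offset values, which are given beside each list.

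**Figure D2:**
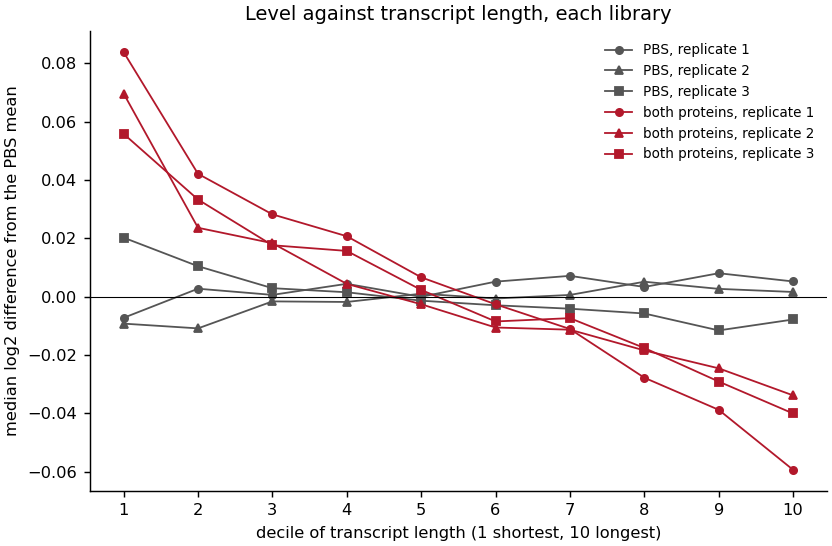
Median log2 difference from the PBS mean (y axis) of genes in each decile of transcript length, from 1 (shortest) to 10 (longest) (x axis), with 1 line per library. The 3 combined libraries (red) run from between 0.0558 and 0.0839 in the shortest decile to between -0.0594 and -0.0339 in the longest, while the PBS libraries (grey) stay within 0.0203 of 0.

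The 10 smallest p-values included genes of matrix turnover, glycolysis and iron and metal handling. Adamts1 encodes a secreted metalloprotease that cleaves proteoglycans such as versican. Its level was 312, 289.5 and 301 CPM in the PBS libraries and 229, 238 and 233 CPM in the combined libraries. The combined libraries were all lower, with a log2 fold change of -0.36 (SE 0.0312, edgeR adjusted p = 3.51e-12), and the call held in all 6 leave-one-out fits. Adamts5, which encodes an aggrecan-cleaving relative, stood at 236, 238 and 229 CPM in PBS and 192, 204 and 189 CPM in combined libraries. It fell by 0.27 on the log2 scale (SE 0.0297, edgeR adjusted p = 3.99e-09) without overlap of the groups. Lox, whose product crosslinks collagen and elastin, stood at 5287, 5138 and 4853 CPM in PBS and 4191, 4168 and 4174 CPM in combined libraries. The 3 combined libraries lay close to one another and below every PBS library, at a log2 fold change of -0.29 (SE 0.0269, edgeR adjusted p = 1.86e-11).

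Tm4sf1, which encodes a small membrane protein of the L6 family, went the other way. Its level was 209, 209 and 211 CPM in PBS and 252, 242 and 265 CPM in combined libraries, with a log2 fold change of 0.27 (SE 0.0293, edgeR adjusted p = 1.51e-09). Every combined library was higher than every PBS library. Mif, which encodes a cytokine with tautomerase activity and is also counted among hypoxia targets, measured 216, 219 and 227 CPM in PBS and 263, 258 and 249.5 CPM in combined libraries. It rose by 0.22 on the log2 scale (SE 0.0287, edgeR adjusted p = 2.62e-07), again with no overlap. Ldha, Tpi1, Pgk1, Tfrc and Mt1 complete the 10 smallest p-values and are described with their groups.

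By size of change, the 12 largest falls and 12 largest rises among called genes without overlap were mostly genes of low level. Their mean in PBS ran from 1.87 to 300.6 CPM. The largest falls were in Med12l, a paralogue of a Mediator subunit, and Clip4, of a family of microtubule-binding proteins. Clip4 measured 4.41, 4.25 and 4.44 CPM in PBS and 2.49, 2.77 and 3.39 CPM in combined libraries, a log2 fold change of -0.60 (SE 0.152, edgeR adjusted p = 0.00922), and was no longer called without combined replicate 1 (0.0874). Med12l stood at 3.33, 2.80 and 3.22 CPM in PBS against 2.49, 1.47 and 2.14 CPM, with 1 combined library well below the other two, and its log2 fold change of -0.62 (edgeR adjusted p = 0.0376) was no longer called without PBS replicate 1 (0.166), PBS replicate 3 (0.0819), combined replicate 2 (0.246) or combined replicate 3 (0.0604). Transcription factor genes among the falls were Hlf and Maf, both of the basic leucine zipper class, and the homeobox gene Irx3. Hlf stood at 27.99, 22.2 and 23.3 CPM in PBS and 16.9, 17.9 and 17.9 CPM in combined libraries. Its log2 fold change was -0.49 (SE 0.111, edgeR adjusted p = 0.0187), and it was no longer called without combined replicate 1 (0.0921), combined replicate 2 (0.0692) or combined replicate 3 (0.0644).

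Metabolic and signalling genes made up most of the other large falls. They were Ppm1k, a mitochondrial phosphatase of branched-chain amino acid breakdown (-0.43 on the log2 scale), Anpep, a cell-surface aminopeptidase (-0.42), Pkia, an inhibitor of protein kinase A (-0.36), Radil (-0.38), Rassf5 (-0.36) and Pltp, the phospholipid transfer protein (-0.35). Pltp is the one of these called in all 6 leave-one-out fits, at 14.1, 14.7 and 14.1 CPM in PBS and 11.8, 10.7 and 11.1 CPM in combined libraries (edgeR adjusted p = 0.00402).

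The rise with the largest fold change was that of Drp2, a relative of dystrophin, at 1.83, 1.98 and 1.81 CPM in PBS and 2.95, 2.89 and 2.97 CPM in combined libraries, a log2 fold change of 0.65 (SE 0.194, edgeR adjusted p = 0.0323). It was called in 0 of the 6 leave-one-out fits, with adjusted p between 0.0639 and 0.116. Sema7a, which encodes a membrane-anchored semaphorin, held in all 6. It measured 5.16, 5.30 and 4.21 CPM in PBS and 7.25, 7.02 and 8.32 CPM in combined libraries, a log2 fold change of 0.62 (SE 0.120, edgeR adjusted p = 0.000531). Saa3, an acute-phase protein gene, stood at 31.3, 30 and 33.5 CPM in PBS and 42.3, 41.2 and 43.5 CPM in combined libraries. The groups were far apart for their spread, and the log2 fold change of 0.42 (SE 0.0642, edgeR adjusted p = 7.39e-05) also held in all 6.

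The remaining large rises were Zpbp (0.54 on the log2 scale), Akr1c18 (0.53), which encodes a steroid dehydrogenase, the forkhead gene Foxs1 (0.51), Ptgir (0.50), which encodes the prostacyclin receptor, Gsto2 (0.38), Aoc2 (0.37), Pcdhgc5 (0.39), Tma7-ps (0.38) and Lif, described with the cytokines. Pcdhgc5 shares exons with its protocadherin cluster and Tma7-ps is a pseudogene of Tma7, so the counting could split their reads with other genes and both are uncertain. Of the 24 genes, 6 were called in every leave-one-out fit, and 6 were called in at most 1.

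**Figure D3:**
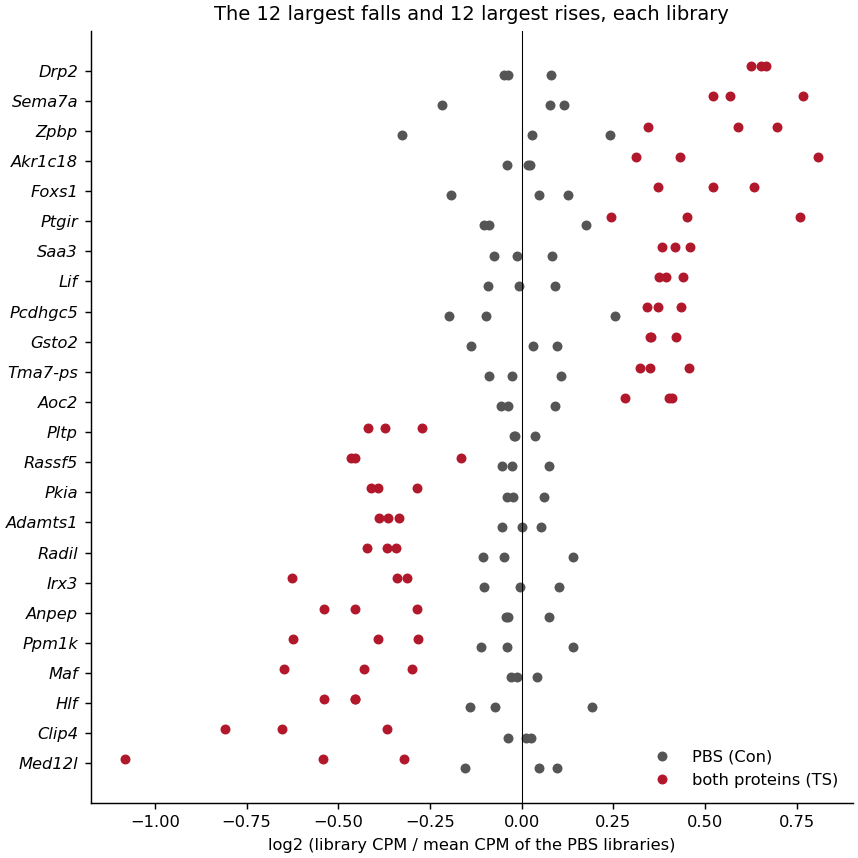
Log2 ratio of the CPM of each library to the mean CPM of the PBS libraries (x axis) for the 12 largest falls and 12 largest rises (y axis), with 1 point per library. By the rule that chose them the red combined libraries lie wholly on one side of the grey PBS libraries, and the spread within the combined group is widest for Med12l.

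Among matrix genes, falls were more frequent than rises. Of 19 tested collagen genes 9 fell and 0 rose, against 2.88% falls among all tested genes, and 10 were not called. The list median was -0.12 on the log2 scale, against -0.00021 over all tested genes. Collagen transcripts are long, with a median of 6450 bases, and with length and GC offsets 7 of 19 fell and the median was -0.071. The number that fell was 4 without PBS replicate 1 and 5 without combined replicate 3. Col6a2, which encodes a chain of the beaded-filament collagen VI, had the smallest p. Its level was 666, 623 and 622 CPM in PBS and 566, 577 and 564 CPM in combined libraries, and it fell by 0.16 on the log2 scale (SE 0.0274, edgeR adjusted p = 6.42e-05). Its partner Col6a3 fell by 0.15 (SE 0.0287, edgeR adjusted p = 0.000544), and Col4a5, a basement membrane chain, also fell by 0.15 (SE 0.0294, edgeR adjusted p = 0.000602). All 3 were called in every leave-one-out fit.

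The chains of the fibrillar collagens I and III were lower in every combined library than in any PBS library, except Col1a1. Col1a2 stood at 5671, 5374 and 5214 CPM in PBS and 4798, 5092 and 4738 CPM in combined libraries, a log2 fold change of -0.15 (SE 0.0290, edgeR adjusted p = 0.000609). Col1a1, which encodes the partner chain of collagen I, stood at 2766, 2557 and 2398 CPM in PBS against 2217, 2411 and 2124 CPM, so the groups overlapped by 1 library. Its log2 fold change of -0.19 (SE 0.0624) did not pass, at an edgeR adjusted p of 0.126, and it was below the threshold without PBS replicate 3 (0.0406) and without combined replicate 2 (0.0340). Col3a1 measured 873, 802 and 809 CPM in PBS and 725, 717 and 663 CPM in combined libraries. Its groups did not overlap, and its log2 fold change of -0.24 (SE 0.0566, edgeR adjusted p = 0.0394) passed with all libraries but in 0 of the 6 leave-one-out fits, where adjusted p lay between 0.0547 and 0.110.

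Of 20 collagen processing enzymes 2 fell and 1 rose. The falls were Lox and its relative Loxl1, which stood at 280.4, 270.3 and 258 CPM in PBS and 251, 251 and 239.9 CPM in combined libraries (log2 fold change -0.13, SE 0.0299, edgeR adjusted p = 0.00507) and was no longer called without PBS replicate 1 (0.0992). The rise was P4ha1, which encodes a catalytic subunit of prolyl 4-hydroxylase and is also a hypoxia target. P4ha1 measured 213, 218 and 218 CPM in PBS and 236, 233 and 227 CPM in combined libraries, a log2 fold change of 0.10 (SE 0.0284, edgeR adjusted p = 0.0193), and it was no longer called without PBS replicate 1 (0.108), combined replicate 1 (0.113) or combined replicate 2 (0.0560). With offsets the list had 3 falls and 1 rise.

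Of 30 other matrix protein genes 10 fell and 2 rose, against 2.88% falls and 3.18% rises among all tested genes. The list median was -0.062. With offsets 4 fell and 1 rose, and the median was -0.051. The number that fell was 3 without PBS replicate 1, 6 without combined replicate 1 and 5 without combined replicate 3. The number that rose was 0 without PBS replicate 1 and 1 without PBS replicate 2 or without any 1 of the combined replicates. Nid2 and Nid1 encode the nidogens, which link laminin and collagen IV networks. Nid2 stood at 60.1, 53.4 and 51.4 CPM in PBS and 45.5, 47.1 and 44.5 CPM in combined libraries, a log2 fold change of -0.27 (SE 0.0487, edgeR adjusted p = 0.000191). Nid1 had a smaller fall of 0.12 (SE 0.0256, edgeR adjusted p = 0.00207). Vcan, which encodes the proteoglycan versican, a substrate of the ADAMTS proteases, measured 897, 892 and 899 CPM in PBS and 812, 831 and 810.3 CPM in combined libraries, a log2 fold change of -0.13 (SE 0.0250, edgeR adjusted p = 0.000367). Fn1, encoding fibronectin, stood at 6261, 5978 and 5780.0 CPM in PBS and 5525, 5780.0 and 5383 CPM in combined libraries, so that the lowest PBS and the highest combined library met. Its log2 fold change was -0.11 (SE 0.0268, edgeR adjusted p = 0.00595), and it was no longer called without PBS replicate 1 (0.129) or combined replicate 3 (0.0517).

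Matrix proteases and their inhibitors moved in both directions, with 4 falls and 3 rises among 25 tested members. With offsets there were 4 falls and 2 rises. Beside Adamts1 and Adamts5, the leading members were rises of Timp1, an inhibitor of matrix metalloproteases, and Ctsl, the lysosomal cysteine protease cathepsin L. Timp1 measured 81.3, 80.2 and 78.3 CPM in PBS and 90.4, 92.9 and 88.01 CPM in combined libraries, a log2 fold change of 0.18 (SE 0.0367, edgeR adjusted p = 0.00108). Ctsl stood at 1315, 1354 and 1371 CPM in PBS and 1501, 1486 and 1474 CPM in combined libraries and rose by 0.14 (SE 0.0257, edgeR adjusted p = 0.000170). Both were separated without overlap and were called in all 6 leave-one-out fits.

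No gene on the list of TGF-β pathway machinery passed the test. Of 25 ligands, receptors, SMADs and regulators 0 were called in either direction, with a median of -0.050. With offsets 0 were called too, and the median was -0.0017. Bmpr2, a BMP receptor gene outside this list and picked after its values were seen, fell by 0.1714 on the log2 scale (edgeR adjusted p = 0.0006667). The smallest p in this list was that of Ski, a SMAD co-repressor, with a log2 fold change of -0.10 and an edgeR adjusted p of 0.0849. Smad7, the feedback inhibitor of the pathway, stood at 9.08, 8.68 and 9.71 CPM in PBS and 8.95, 11.1 and 12.2 CPM in combined libraries, overlapping groups with a log2 fold change of 0.23 (SE 0.0957, edgeR adjusted p = 0.153), past the threshold without combined replicate 1 (0.0358). Tgfbr2, which encodes the ligand-binding receptor, had a log2 fold change of -0.079 (SE 0.0348, edgeR adjusted p = 0.188). Tgfb1 itself measured 22.3, 22.9 and 19 CPM in PBS and 20.2, 19.8 and 17.5 CPM in combined libraries, with overlapping groups and an edgeR adjusted p of 0.199, past the threshold without PBS replicate 3 (0.0470).

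Of 24 textbook TGF-β targets in the table and tested, 2 rose and 2 fell, with a median of 0.040. With offsets 1 rose and 2 fell, and 0 fell without PBS replicate 1, PBS replicate 2 or combined replicate 2. Timp1, described above, was one of those that rose. Ccn2, encoding connective tissue growth factor, stood at 82.1, 90.99 and 87.8 CPM in PBS and 81.99, 85.2 and 88.4 CPM in combined libraries. The groups overlapped throughout, and the log2 fold change of -0.029 (SE 0.0416, edgeR adjusted p = 0.773) had a 95% interval from -0.12 to 0.067. Acta2, the smooth muscle actin gene used as a myofibroblast marker, measured 391, 386 and 395 CPM in PBS and 362, 363 and 370.0 CPM in combined libraries. It was lower in all 3 combined libraries, at a log2 fold change of -0.10 (SE 0.0284, edgeR adjusted p = 0.0274). It was called in only 1 of the 6 leave-one-out fits, that without combined replicate 3, and the others gave adjusted p from 0.06 to 0.125. Snai2, a zinc-finger repressor of epithelial genes, also fell, at 23.1, 21.5 and 19.5 CPM in PBS and 18.6, 18.01 and 17.6 CPM in combined libraries (log2 fold change -0.24, SE 0.0687, edgeR adjusted p = 0.0210), and it was no longer called without PBS replicate 1 (0.229), PBS replicate 2 (0.0677), combined replicate 2 (0.0557) or combined replicate 3 (0.0714).

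Of 19 contractile and myofibroblast genes 2 rose and 2 fell, with a median of -0.019. Besides Acta2 the fall was in Cald1, the actin-binding protein caldesmon, with a log2 fold change of -0.088 (edgeR adjusted p = 0.0276). The rises were in Myl6, a myosin light chain (0.10, edgeR adjusted p = 0.0278), and Tagln2, transgelin-2 (0.092, edgeR adjusted p = 0.0370). None of the 4 was called in more than 2 leave-one-out fits, and with offsets 1 member fell and 0 rose.

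**Figure D4:**
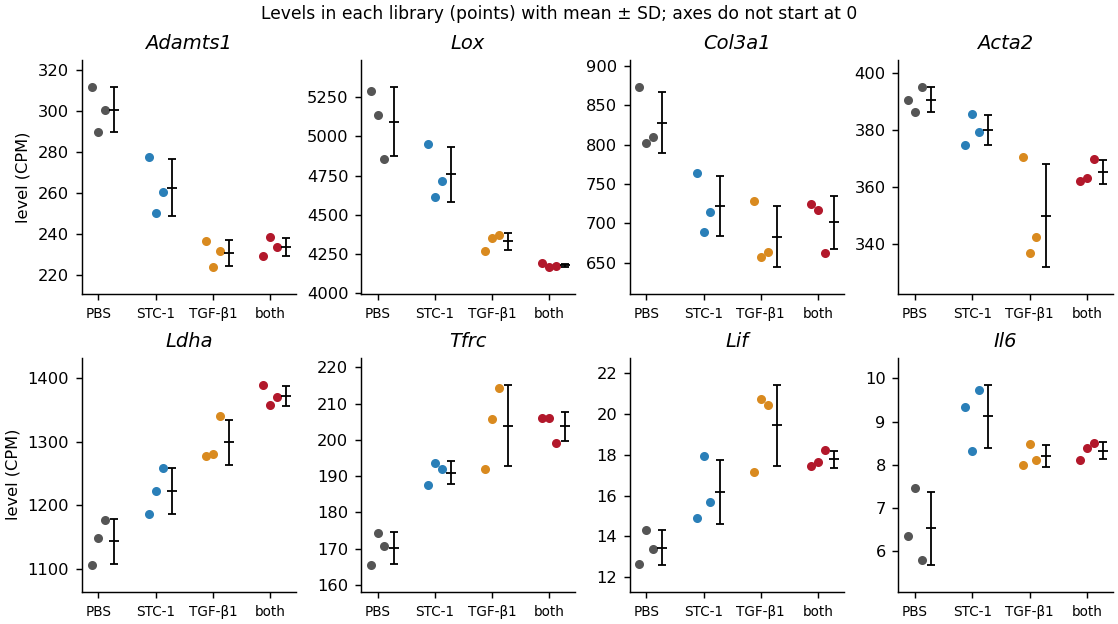
Level in CPM (y axis, not starting at 0) of 8 genes in each of the 12 libraries (points) with the mean and SD of the 3 libraries of each group (bars). Between PBS and the combined treatment Adamts1, Lox, Col3a1 and Acta2 are lower and Ldha, Tfrc, Lif and Il6 higher, and for Adamts1 the combined and TGF-β1 libraries lie at about the same level.

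Of 29 tested glycolytic and hypoxia-responsive genes 14 rose and 0 fell, against 3.18% rises among all tested genes. Another 15 were not called, 25 of the 29 had a positive fold change and 4 a negative one, and the median was 0.11 on the log2 scale. With length and GC offsets 16 rose, 0 fell and the median was also 0.11. In the leave-one-out fits between 12 and 15 rose. Ldha, whose enzyme turns pyruvate into lactate, stood at 1107, 1149 and 1177 CPM in PBS and 1389, 1358 and 1369 CPM in combined libraries. The lowest combined library was above the highest PBS library, and the log2 fold change was 0.26 (SE 0.0267, edgeR adjusted p = 2.71e-10). Tpi1, encoding triosephosphate isomerase, stood at 759, 736 and 757 CPM in PBS and 866, 895 and 868 CPM in combined libraries, a log2 fold change of 0.22 (SE 0.0259, edgeR adjusted p = 9.63e-09). Pgk1, the first ATP-yielding enzyme of the pathway, stood at 909, 947 and 953 CPM against 1114, 1095 and 1047 CPM and rose by 0.21 (SE 0.0270, edgeR adjusted p = 1.09e-07).

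More members that rose are named here, picked after their values were seen. They do not stand for the list as a whole, of which 15 members were not called. Gapdh, a housekeeping glycolytic enzyme often used as a reference gene, measured 4216, 4184 and 4254 CPM in PBS and 4794, 4741 and 4697 CPM in combined libraries, a log2 fold change of 0.17 (SE 0.0244, edgeR adjusted p = 2.69e-06). Its 3 combined libraries were all higher than the PBS libraries. Aldoa (aldolase A, 0.18), Eno1 (enolase 1, 0.18) and Pfkl (a phosphofructokinase subunit, 0.19) rose as well. Bnip3, a mitophagy receptor that is induced by hypoxia, stood at 76.3, 75.4 and 83.5 CPM in PBS and 97.5, 90.2 and 102 CPM in combined libraries, a log2 fold change of 0.30 (SE 0.0418, edgeR adjusted p = 3.37e-06). Pdk1, a kinase that blocks entry of pyruvate into the mitochondrial cycle, measured 65.3, 62.2 and 64.9 CPM in PBS and 75.9, 76.8 and 75.3 CPM in combined libraries. It rose by 0.24 (SE 0.0386, edgeR adjusted p = 1.79e-05), with the 3 combined libraries within a narrow range. These are the genes, with Ldha and Pgk1, whose promoters are printed above. Several of these genes, among them Gapdh, Ldha, Pgk1, Tpi1, Eno1, Aldoa and Mif, have processed pseudogenes with near-identical sequence, so their counts are uncertain where reads could be split. Genes outside the list that are known to respond to hypoxia, Fam162a (0.31, edgeR adjusted p = 2.14e-06) and Higd1a (0.32, edgeR adjusted p = 0.000172), also rose and were likewise picked after their values were seen.

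Iron and metal handling genes showed 3 rises and 0 falls among 15 tested members, against 3.18% rises among all tested genes. With offsets there were 2 rises. Tfrc encodes the transferrin receptor, which takes up iron. It stood at 166, 174 and 171 CPM in PBS and 206, 206 and 199 CPM in combined libraries, higher in all 3, with a log2 fold change of 0.26 (SE 0.0318, edgeR adjusted p = 4.83e-08). Mt1 and Mt2 encode metallothioneins, small zinc- and copper-binding proteins. Mt1 measured 129.7, 138 and 140.3 CPM in PBS and 171, 160.5 and 158 CPM in combined libraries, a log2 fold change of 0.26 (SE 0.0326, edgeR adjusted p = 8.26e-08). Mt2 stood at 90.9, 92.04 and 92.1 CPM in PBS and 118, 114 and 120.2 CPM in combined libraries, and rose by 0.36 (SE 0.0508, edgeR adjusted p = 0.000201). Its libraries lay closer together within the PBS and combined groups than those of Mt1. Its SE, which comes from the fit of all 12 libraries, was nevertheless the larger. Fth1, the ferritin heavy chain, had a log2 fold change of -0.034 (SE 0.0261, edgeR adjusted p = 0.513). The 3 rises were called in all 6 leave-one-out fits.

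Of 18 cytokine and chemokine genes 3 rose and 0 fell, against 3.18% rises among all tested genes. The median was 0.11, and 2 rose with offsets. Lif, an IL-6 family cytokine, stood at 12.6, 14.3 and 13.4 CPM in PBS and 17.4, 17.7 and 18.2 CPM in combined libraries, a tight group above every PBS library. Its log2 fold change of 0.40 (SE 0.0801, edgeR adjusted p = 0.000622) held in all 6 leave-one-out fits. Il6 measured 6.34, 7.46 and 5.79 CPM in PBS and 8.10, 8.38 and 8.50 CPM in combined libraries, a log2 fold change of 0.35 (SE 0.106, edgeR adjusted p = 0.0339) that was called in only 1 of the 6, with adjusted p between 0.0173 and 0.157. The third rise was Mif. The monocyte-attracting chemokine Ccl2 had a log2 fold change of 0.13 (SE 0.0428) and was not called, at an edgeR adjusted p of 0.0843.

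Other immune lists had few calls. Among 19 NF-κB subunits and targets 1 rose, Il6, and 0 fell, and with offsets 0 rose, so that Il6 was no longer called. Among 24 interferon-stimulated genes 0 were called, also with offsets, and the member with the smallest p, Irgm1, had an edgeR adjusted p of 0.250. Of 14 complement and MHC class I genes 1 fell, Cd55, which encodes a complement decay-accelerating protein (-0.15, SE 0.0456, edgeR adjusted p = 0.0289), and it was no longer called without PBS replicate 1 (0.183), PBS replicate 2 (0.104), combined replicate 1 (0.0652) or combined replicate 2 (0.128). With offsets 1 of the 14 fell as well.

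PI3K and AKT pathway components showed 6 falls and 0 rises among 39 tested members, against 2.88% falls among all tested genes. The list median was -0.035. These transcripts are long, with a median of 6323 bases, and with offsets 4 fell and the median was -0.0067. Without PBS replicate 1 or without combined replicate 1 the number was 3, where falls over all tested genes went from 339 to 115 and 149. Pdgfra, a receptor tyrosine kinase upstream of the cascade and itself on the fibroblast marker list, had the smallest p. It stood at 1394, 1354 and 1372 CPM in PBS and 1198, 1247 and 1211 CPM in combined libraries, a log2 fold change of -0.17 (SE 0.0264, edgeR adjusted p = 9.05e-06). Pdgfrb, its paralogue, measured 146, 134 and 133 CPM in PBS and 118, 127 and 125 CPM in combined libraries (log2 fold change -0.16, SE 0.0397, edgeR adjusted p = 0.0108), and it was no longer called without PBS replicate 1 (0.124) or combined replicate 1 (0.0893). Gsk3b, a kinase that AKT inhibits, stood at 87.2, 90.3 and 93.6 CPM in PBS and 78.2, 76.8 and 77.8 CPM in combined libraries, a fall of 0.22 on the log2 scale (SE 0.0372, edgeR adjusted p = 7.39e-05). Foxo3, a transcription factor that AKT inactivates, went from 74.2, 72.2 and 68.6 CPM to 61.5, 61.9 and 60.3 CPM, a log2 fold change of -0.23 (SE 0.0398, edgeR adjusted p = 0.000109). Transcript levels do not measure the activity of these kinases.

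Of 18 genes that FOXO factors activate, 2 fell and 0 rose, and 2 fell with offsets. Pdk4, another pyruvate dehydrogenase kinase, stood at 68.1, 70.5 and 66.8 CPM in PBS and 61.4, 57.9 and 57.8 CPM in combined libraries, a log2 fold change of -0.21 (SE 0.0401, edgeR adjusted p = 0.000303), so it moved opposite to Pdk1. Cdkn1b, encoding the cell cycle inhibitor p27, measured 75.4, 72.8 and 72.3 CPM in PBS and 66.2, 67.3 and 61.7 CPM in combined libraries, a log2 fold change of -0.17 (SE 0.0395, edgeR adjusted p = 0.00318). Both were called in all 6 leave-one-out fits. Of the 9 tested CDK inhibitors and D cyclins with their kinases, Cdkn1b was the 1 called, and with offsets 1 fell and 1 rose.

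DNA replication and licensing genes showed 7 rises and 0 falls among 34 tested members, against 3.18% rises among all tested genes. The median was 0.054, and with offsets there were also 7 rises, with a median of 0.048. The number that rose was 2 without PBS replicate 1, 3 without combined replicate 1 and 4 without combined replicate 2. Cdc6, which loads the replicative helicase, stood at 51.6, 50.2 and 54.96 CPM in PBS and 60.3, 56.5 and 61.7 CPM in combined libraries, a log2 fold change of 0.19 (SE 0.0442, edgeR adjusted p = 0.00476). Mcm7, a subunit of that helicase, rose by 0.11 (SE 0.0287, edgeR adjusted p = 0.00821) but was no longer called without PBS replicate 1 (0.0570). Of 24 mitosis and spindle genes 0 were called, with a median of 0.056, and 3 rose with offsets.

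Cytosolic ribosomal protein genes had the highest share of rises of all lists, 29 of 40, against 3.18% among all tested genes. These genes had 0 falls and a median of 0.10. They are among the shortest transcripts, with a median length of 1040 bases, and with length and GC offsets 5 of 40 rose and the median was 0.042. The number that rose was 18 without PBS replicate 1 and 19 without combined replicate 1. Rps14 stood at 756, 746 and 729.8 CPM in PBS and 836, 833 and 821 CPM in combined libraries, a log2 fold change of 0.16 (SE 0.0260, edgeR adjusted p = 4.46e-05). Rpl13 measured 1350.0, 1315 and 1338 CPM in PBS and 1469, 1454 and 1532 CPM in combined libraries and rose by 0.15 (SE 0.0260, edgeR adjusted p = 6.26e-05). Both groups were separated for each, and ribosomal protein genes also have many processed pseudogenes. Other lists of short transcripts had lower medians and fewer calls. Of 42 nuclear-encoded respiratory chain genes 4 rose, with a median of 0.064, and with offsets 0 rose, 2 fell and the median was -0.0056. Their counts ran from 2 rises without PBS replicate 1 or 2 to 8 without PBS replicate 3. Of 31 proteasome subunits 5 rose (1 with offsets), against 3.18% rises among all tested genes. Of 36 mitochondrial ribosomal protein genes 2 rose (with offsets 2 rose and 1 fell). With 1 PBS or combined library left out, the proteasome count ran from 1, without PBS replicate 2, to 7, without PBS replicate 3, and the mitochondrial ribosomal count from 0, without PBS replicate 2 or combined replicate 1, to 5, without PBS replicate 3.

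**Figure D5:**
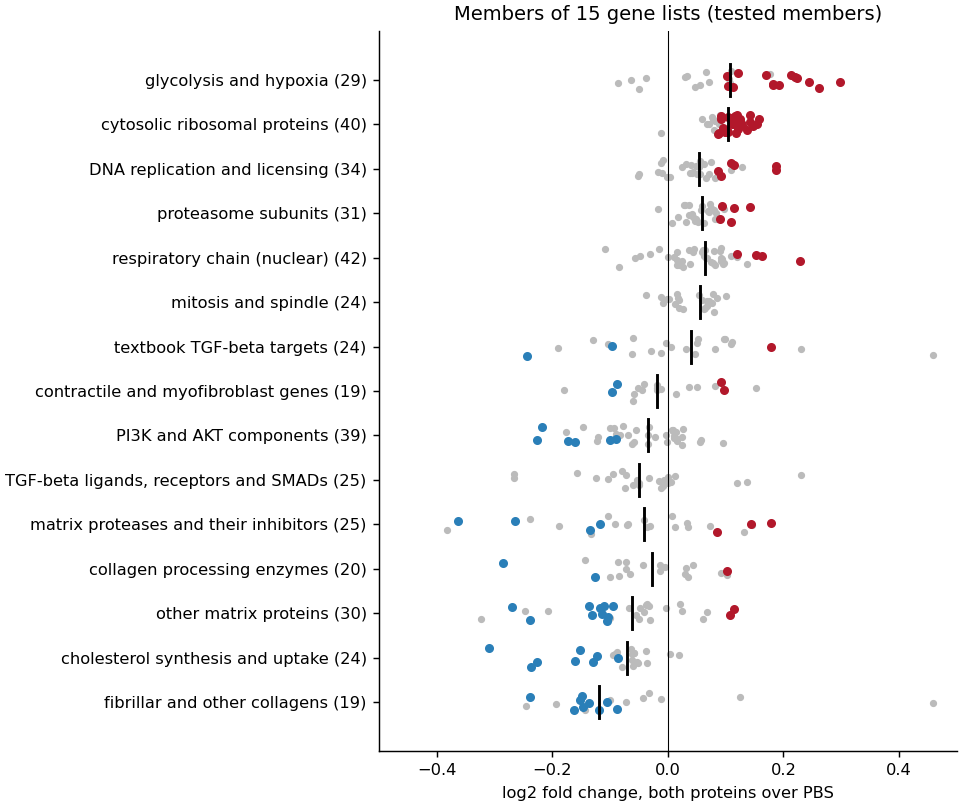
Log2 fold change of the combined treatment over PBS (x axis) for the tested members of 15 gene lists (y axis, number tested in brackets), with 1 point per gene and a black bar at the list median. Red members rose, blue ones fell and grey ones were not called. Glycolysis and ribosomal protein genes lie mostly to the right of 0 and collagen and cholesterol genes to the left, and 2 genes that are not reported are not drawn.

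Cholesterol synthesis and uptake genes showed 8 falls and 0 rises among 24 tested members, against 2.88% falls among all tested genes. Of the 24 members 22 had a negative fold change, and the median was -0.072. With offsets 9 fell, and the median was -0.082. In the leave-one-out fits the number that fell was between 3, without combined replicate 3, and 7. It was 4 without PBS replicate 1, 5 without PBS replicate 2, 4 without PBS replicate 3 and 5 without combined replicate 1. Mvd, which encodes a decarboxylase of the mevalonate pathway, stood at 68.6, 71.2 and 67.7 CPM in PBS and 59.1, 64.2 and 52.4 CPM in combined libraries. The combined libraries were lower but scattered, with a log2 fold change of -0.24 (SE 0.0531, edgeR adjusted p = 0.00597), and Mvd was no longer called without PBS replicate 1 (0.0511). Tm7sf2, a sterol reductase gene, measured 18.8, 19.3 and 17.6 CPM in PBS and 14.6, 15.2 and 15.04 CPM in combined libraries, a log2 fold change of -0.31 (SE 0.0772, edgeR adjusted p = 0.00799), and was no longer called without PBS replicate 2 (0.0530) or combined replicate 1 (0.0508). Dhcr7, the last enzyme of the pathway, had a log2 fold change of -0.23 (SE 0.0529, edgeR adjusted p = 0.00450) and was no longer called without PBS replicate 1 (0.0605) or combined replicate 3 (0.0770).

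Stc1, the gene of the added hormone, stood at 10.7, 11.1 and 9.82 CPM in PBS and 11.1, 9.85 and 11.6 CPM in combined libraries. The groups overlapped, and the log2 fold change of 0.041 (SE 0.0972, edgeR adjusted p = 0.867) had a 95% interval from -0.18 to 0.27. Since the protein was added as such, this transcript does not check the treatment. Among the 7 tested stanniocalcins and their partners 3 fell, 1 with offsets and 1 without PBS replicate 1. Pappa2, a homologue of the STC-1 target PAPP-A, stood at 65.1, 61.9 and 59.2 CPM in PBS and 51.96, 52.7 and 52.1 CPM in combined libraries, a log2 fold change of -0.25 (SE 0.0439, edgeR adjusted p = 0.000113), called in all 6 leave-one-out fits. Pappa itself measured 20.7, 18.9 and 19.2 CPM in PBS and 16.5, 17.6 and 14.1 CPM in combined libraries (log2 fold change -0.29, SE 0.0756, edgeR adjusted p = 0.0131), and it was no longer called without PBS replicate 1 (0.115) or combined replicate 3 (0.139). Ucp2, a mitochondrial carrier studied as a mediator of STC-1 effects, had a log2 fold change of -0.15 (SE 0.0461, edgeR adjusted p = 0.0340) and was no longer called without PBS replicate 1 (0.257), combined replicate 1 (0.203) or combined replicate 2 (0.0587).

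The remaining lists had at most 4 calls each, where 3.18% of all tested genes rose and 2.88% fell. Immediate early genes had 2 rises among 25 members, Fosl1, an AP-1 subunit (0.18, edgeR adjusted p = 0.00223), and Dusp6, a phosphatase that inactivates ERK (0.22, edgeR adjusted p = 0.00188), the latter no longer called without PBS replicate 1 (0.0605). With offsets there were also 2 rises. Antioxidant genes had 2 rises and 2 falls among 23, and 1 rise and 2 falls with offsets, led by Txn1, thioredoxin, at 463, 462 and 489 CPM in PBS and 521, 534 and 519 CPM in combined libraries (0.15, edgeR adjusted p = 0.000388). ATF4-dependent amino acid genes had 1 rise and 2 falls among 30, the same numbers as with offsets. The fall with the smaller p was that of Slc38a2, a neutral amino acid transporter, at 934, 887 and 886 CPM in PBS and 807, 778 and 813 CPM in combined libraries (-0.18, edgeR adjusted p = 8.79e-06). Circadian clock genes had 2 falls among 17, Hlf and Per1 (-0.14, edgeR adjusted p = 0.0230), and 0 with offsets. Per1 was no longer called without PBS replicate 1 (0.219), combined replicate 1 (0.121) or combined replicate 2 (0.0570). Integrin and focal adhesion genes had 2 falls among 19 and 0 with offsets. CCN and YAP targets had 1 fall among 17 and ER chaperones 1 fall among 22, and both lists had 0 with offsets. Calcium and phosphate transport genes had 1 fall among 21 and p53 targets 1 rise among 20, with the same numbers with offsets, and BMP targets had 0 calls among 10 in either fit. Leaving out 1 PBS or combined library moved the counts in these lists by at most 2. The integrin, calcium, CCN and ER chaperone lists each had 0 falls without PBS replicate 1 or combined replicate 1.

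No gene separated the combined treatment from TGF-β1 alone at the threshold used. For the combined treatment against TGF-β1, 0 of 11763 genes were called (0%), with 765 genes at an unadjusted p under 0.05, where 588 would be so by chance, and a lowest edgeR adjusted p of 0.145. DESeq2 called 1 gene. A p that misses the threshold does not show that the treatments act alike. Adamts1 stood at 231 ± 6.50 CPM (mean ± SD, n = 3) with TGF-β1 alone and 234 ± 4.51 CPM with both. Ldha stood at 1299 ± 35.7 CPM with TGF-β1 alone and 1372 ± 15.7 CPM with both, the combined libraries being the higher, with a log2 difference of 0.079 (SE 0.0267) that did not pass. Lox was the reverse, 4331 ± 51.3 CPM with TGF-β1 alone and 4178 ± 11.8 CPM with both, a log2 difference of -0.052 (SE 0.0269). TGF-β1 alone against the same PBS libraries gave 469 called genes (3.99%) and STC-1 alone 6 (0.051%). Those comparisons share the PBS libraries with the one described here.

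Against STC-1 alone the combined libraries differed in 35 genes (0.298%), 20 higher (0.17%) and 15 lower (0.128%). The count was 2 without combined replicate 1 and 13 to 21 when any STC-1 replicate or combined replicate 2 was left out, so it rests on few libraries. Of the 29 glycolysis and hypoxia genes 9 were among the 35. Ldha had a log2 difference of 0.17 (SE 0.0267, edgeR adjusted p = 0.000339) between the combined and the STC-1 libraries, the latter at 1223 ± 36.5 CPM. Pgk1 (0.15, edgeR adjusted p = 0.00259) and Tpi1 (0.13, edgeR adjusted p = 0.00928) were also higher. The lower genes included Lox (-0.19, SE 0.0269, edgeR adjusted p = 3.73e-05), Adamts1 (-0.17, edgeR adjusted p = 0.00341), Adamts5 (-0.13, edgeR adjusted p = 0.0272) and Cdkn1b (-0.16, edgeR adjusted p = 0.0373). Tm4sf1 was higher by 0.15 (edgeR adjusted p = 0.00407).

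The interaction tests whether the effect of both proteins departs from the sum, on the log2 scale, of the effects of each alone. It gave 0 called genes, with 975 at an unadjusted p under 0.05 and a lowest edgeR adjusted p of 0.132, and DESeq2 also called 0. For Adamts1 the log2 fold changes over PBS were -0.20 with STC-1, -0.38 with TGF-β1 and -0.36 with both, and the interaction was 0.21 (SE 0.0444, edgeR adjusted p = 0.132). For Ldha they were 0.10, 0.18 and 0.26, with an interaction of -0.017 (SE 0.0378, edgeR adjusted p = 0.940). For Il6 they were 0.48, 0.33 and 0.35, with an interaction of -0.46 (SE 0.145, edgeR adjusted p = 0.354). For Adamts1 and Il6 the interaction was well beyond its standard error but did not pass after adjustment over all tested genes. A p that misses the threshold does not show additivity. Additivity and a departure from it of the size of these standard errors cannot be told apart for single genes in these libraries.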

How the data were processed

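Poly-A RNA was sequenced, per the labels' protocols. The submitters' processing notes give GRCm39 as the genome build, while the aligner, the counting program and the use of strand are not given in the sources used here. What the authors deposited was 1 table of expected counts for 16300 genes, unscaled and not always whole, a unit read from its values, and these were rounded here. RefSeq symbols were found for 16177 gene numbers, and the other 123 carried 0.123% or less of the counts of any library. Totals per library were between 16867563 and 18521810 expected counts.

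Filtering with filterByExpr left 11763 genes, and TMM factors scaled the libraries. All 12 libraries, 3 in each of 4 groups, entered 1 fit with a mean per group (8 residual degrees of freedom). Quasi-likelihood tests (edgeR 4.0.16, R 4.3.3, robust moderation) were two-sided, with Benjamini-Hochberg adjustment over every tested gene. CPM, computed here from the deposited counts, divide counts by the TMM-scaled library size. SE is the size of the log2 fold change divided by the square root of F. The median biological coefficient of variation was 2.24%. The steps were run on simulated counts with known changes. These were drawn with the same biological variation for every gene and without length or GC trends. That run therefore does not bear on the trends in these libraries. Replicates within the PBS and combined groups differed by more than sampling noise (chi-square per degree of freedom from 1.60 to 2.45). Transcript lengths are those of the longest protein-coding transcript in GENCODE M21.

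The libraries were taken by treatment label, but the comparison and the gene lists were chosen with earlier results of these data known. Named genes were the 12 largest rises and falls among called genes whose groups did not overlap (the higher group averaging 50 counts or more), the 10 smallest p, up to 4 members of each list by p, and a fixed set that includes Stc1, Tgfb1 and the main collagens. A few more were picked after their values were seen, as stated where they appear. Predicted genes were left out, and 2 genes that the rule picked are not reported here. Alternatives were library sizes without TMM, no filter, a minimum mean of 50 counts, a fit of the compared groups alone, a replicate block, robust moderation off, DESeq2 1.42.0, each library left out and, added later, length and GC offsets.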

Additional observations from a re-analysis of the deposited data

How the results depend on the processing

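The count of 713 genes for the combined treatment against PBS was 718 without TMM scaling (268 rose, 450 fell), 763 without the low-count filter, 745 with a mean of at least 50 counts, 554 with only the 6 compared libraries, 665 without robust moderation, 478 by DESeq2, which gave an adjusted p to 4009 genes, and 480 with length and GC offsets. With 1 library left out it ranged from 276 to 722, and the lowest counts, 276, 421 and 351, were those without PBS replicate 1, PBS replicate 2 and combined replicate 1. Whether the replicate numbers pair the samples is not known. Same-numbered PBS and combined libraries had deviation correlations of 0.023, -0.013 and 0.13, and differently numbered ones from -0.14 to 0.13. With 3 libraries per group these values cannot settle it. The fit with a replicate block gave 856. Of the 713 genes 3 changed sign with offsets, and 0 under any other setting listed here. Against TGF-β1 alone the count of 0 became 4 without the filter, 1 with the replicate block, 2 without robust moderation, 1 by DESeq2 and 1 with offsets, and from 0 to 6 with 1 library left out. Against STC-1 alone the count of 35 was 64 without the filter, 50 with the replicate block, 23 with offsets and from 2 to 39 with 1 library left out. The interaction count of 0 was 8 without the filter, 5 with the replicate block, 1 without robust moderation and from 0 to 2 with 1 library left out. Among genes named in the text, the sign of the log2 fold change turned only for uncalled ones when 1 library was left out, from -0.068 to 0.0071 for Ccn2 and from -0.0074 to 0.11 for Stc1. The cause of these differences was not tested, beyond the fewer samples or different genes in each fit. The share of genes called was 1.53% below a log2 CPM of 5 and 10.2% above it, and the part of depth in this was not tested.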
